A study of Mus musculus with 2 samples.

Results

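SOX-high cells are the cells of embryonic mouse retina whose open chromatin held the largest share of SOX binding patterns without a large share of TEAD, POU4F or proneural patterns. They numbered 72 of 890 kept cells in replicate 1 (8.09%) and 93 of 1051 in replicate 2 (8.85%), so 165 of 1941 in all. A cell was kept when its total was at least 300000 counts and above the total of the same barcode in the other library. Each cell was scored by the mean log2 share of its total in the patterns SOX8, SOX9, SOX10, Sox2 and Sox3. Within each library the top 20% of cells on this score were taken, less every cell in the top 25% of a like score for TEAD1 to TEAD4, for POU4F1 to POU4F3, or for NEUROD1, NEUROD2, Neurog1 and Atoh1. The cells were chosen by the measured counts of these 16 motifs, so their values are given as a description with no test.

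The study profiled accessible chromatin in single cells of dissociated whole retina from WT mice at E14.5 on the 10x Genomics platform. It gave 2 replicate libraries of the same genotype, age and tissue and no other condition. The labels do not say whether they came from separate embryos or litters, so the spread between them may be technical. Each file holds a whole-number count for each of 579 transcription factor motifs and each barcode, which in this file type sums the accessibility signal of the peaks that carry the motif.

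SOX proteins bind DNA through an HMG box, and relatives read nearly the same short sequence. Sox2 and Sox9 are held by dividing progenitors of the retina and later by Müller glia, while SOXC members such as SOX4 and Sox11 act in differentiating neurons, including ganglion cells. TEAD proteins are the DNA-binding partners of YAP in progenitors, POU4F proteins mark ganglion cells, and proneural bHLH proteins such as NEUROD1 drive neurogenesis. A motif count measures how open the peaks with a pattern are, not whether a protein is bound, and factors with like patterns share peaks and counts.

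The label progenitor-like was checked against 5 motif lists that the rule did not use. The homeodomain patterns of LHX2, LHX9 and RAX were higher in SOX-high cells of both libraries, while the Notch, NFI, eye-field and cell cycle lists were not higher as groups. The 3 markers given for these cells, SOX8, SOX9 and Sox2, were all used by the rule and so cannot check the label. Sox2 exceeded all other kept cells by 0.014 log2 units, and by 0.010 and 0.011 when cells were chosen without it. For these reasons the cells are called by their rule, SOX-high.

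Kept cells were 36.7% and 34.7% of the barcodes but held 98.3% and 97.3% of the counts. The libraries listed 1828 barcodes in common, and 70 and 84 of the SOX-high cells had a barcode that also occurred in the other library. The deeper copy of these held at least 22.7 and 75.4 times the counts of the other, and 0 barcodes were SOX-high in both. SOX-high cells had a median total of 4105172 counts in replicate 1 and 4399828 in replicate 2, against 3471982 and 3512978 in all other kept cells. The ratio was 1.18 and 1.25. They made up 12.5% and 13.7% of the deepest tercile of cells, 5.74% and 4.29% of the middle tercile, and 6.06% and 8.57% of the shallowest tercile. The part of depth in the results was not tested.

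The SOX score had no gap at the point where SOX-high cells begin. That point lay 0.034 and 0.033 log2 units above the median kept cell. SOX-high cells ran from 0.035 through a median of 0.054 to 0.126 in replicate 1, and from 0.033 through 0.050 to 0.202 in replicate 2. The 5 lowest SOX-high cells had 0.035 to 0.037 in replicate 1 and 0.033 to 0.035 in replicate 2. The 5 highest cells that missed the point while meeting the other conditions had 0.033 to 0.034 in replicate 1 and 0.033 in replicate 2. Within 0.01 of the point lay 21 and 23 SOX-high cells and 30 and 32 such cells below it. After each cell was thinned to 300000 counts the rule chose 76 and 92 cells, of which 27 and 28 were SOX-high cells (37.5% and 30.1% of these). SOX-high cells are thus a range of a continuous score, and the score by itself does not say whether they are a cell type.

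**Figure D1:**
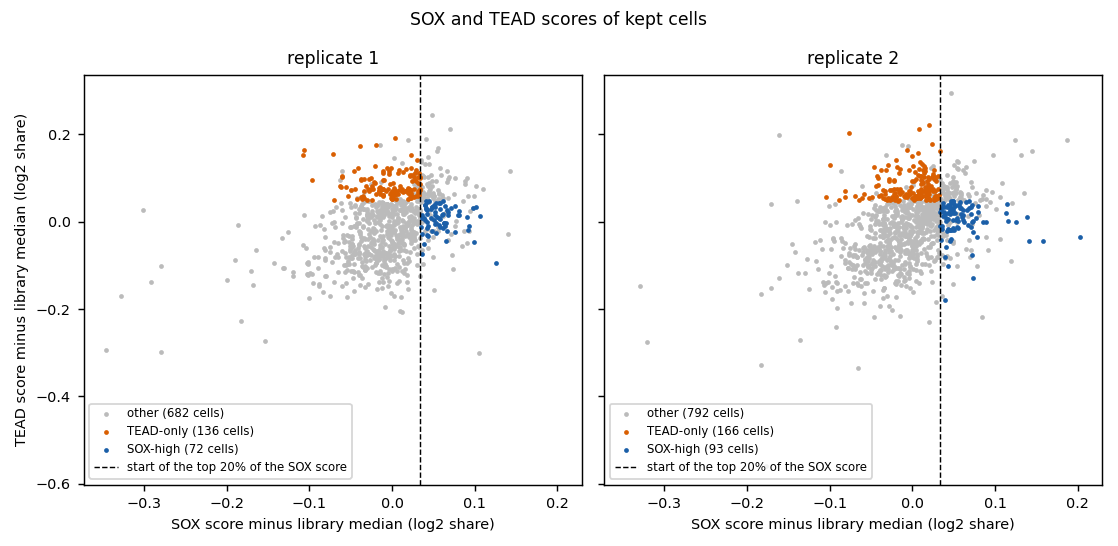
Each point is a kept cell of replicate 1 (left) or replicate 2 (right); the x axis is the SOX score and the y axis the TEAD score, each minus its library median (log2 share), and the dashed line marks where the top 20% of the SOX score begins. SOX-high cells (blue) continue the cloud of other cells to the right of the line, with scores up to 0.126 and 0.202, and TEAD-only cells (orange) lie to its left.

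High SOX and high TEAD scores often fell on the same cells. Of the 178 and 211 cells in the top 20% of the SOX score, 67 (37.6%) and 74 (35.1%) were also in the top 25% of the TEAD score and so were set aside. Fewer were set aside for POU4F, 38 in each library (21.3% and 18.0%), or for the proneural score, 23 (12.9%) and 26 (12.3%). Across kept cells Pearson's r between the SOX and TEAD scores was 0.38 (n = 890) and 0.43 (n = 1051), a description of cells that share a library and a common total. SOX-high cells themselves had a median TEAD score 0.013 log2 units above that of all kept cells in both libraries. TEAD is thus not low in these cells, which only lack its highest range. Their median POU4F score differed from that of kept cells by -0.00036 and -0.0023, and their median proneural score by -0.028 and -0.046.

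Within the SOX score, SOX8 carried most of the difference. SOX8, a SOXE factor of glia and neural crest, took 1.15 of every 10000 counts in SOX-high cells of replicate 1 and 1.14 in replicate 2, against 1.01 in all other kept cells of each library. The log2 ratio was 0.18 in both libraries. SOX8 is the rarest of the 5 patterns, with a median of 354.5 and 351 counts per kept cell. The SD of its log2 share over kept cells was 0.17 in each library. Counting alone would give an SD of 0.096 and 0.10, and SDs do not add. SOX8 supplied 51.7% and 51.8% of the variance of the SOX score. In all, 80.6% and 68.8% of SOX-high cells were in the top 20% for SOX8 alone.

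SOX9, the SOXE factor of retinal progenitors and Müller glia, took 19.5 of every 10000 counts in SOX-high cells and 18.7 in other cells of replicate 1, and 26.6 against 25.7 in replicate 2 (log2 ratio 0.057 and 0.054). SOX10, the SOXE factor of neural crest and oligodendrocytes, had log2 ratios of 0.035 and 0.042. Sox2, the SOXB1 factor that keeps neural progenitors undifferentiated, took 91.9 against 91.0 per 10000 in replicate 1 and 90.8 against 90.0 in replicate 2, a log2 ratio of 0.014 in each. Its SOXB1 relative Sox3 had 0.0080 and 0.013. Sox2 and Sox3 thus differed least of the 5. Only 33.3% of SOX-high cells in each library were in the top 20% for Sox2, and 51.4% and 53.8% for SOX9.

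When cells were chosen without the motif in question, the order of the motifs stayed but the sizes fell. Without SOX8, 57 and 77 cells were chosen, of which 32 and 51 were SOX-high cells, and their log2 ratio for SOX8 was 0.061 and 0.067. The held-out ratio was 0.045 and 0.043 for SOX9, 0.029 and 0.031 for SOX10, 0.010 and 0.011 for Sox2, and 0.0011 and 0.0074 for Sox3. Across kept cells Sox2 and Sox3 moved together (r = 0.79 and 0.77), as did SOX9 and Sox2 (0.62 and 0.61), whereas SOX8 and Sox2 hardly did (0.16 and 0.025). Each r is over the 890 and 1051 kept cells, which share their library and totals.

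The SOX motifs that the rule did not use lay higher in SOX-high cells too. All 11 were above all other kept cells in both libraries, with a median log2 ratio of 0.052 and 0.035 beside -0.0030 and 0.00015 over all 579 motifs. They share the SOX core sequence with the rule's motifs, so this is a description. Sox1, another SOXB1 factor, took 1.72 against 1.62 per 10000 in replicate 1 and 1.77 against 1.69 in replicate 2 (0.085 and 0.069). SOX4, a SOXC factor, took 1.25 against 1.16 and 1.31 against 1.26 (0.11 and 0.056). Sox11, the SOXC factor needed for ganglion cells, had 0.085 and 0.036, and the joint Pou5f1::Sox2 pattern 0.076 and 0.064. SOX21, a SOXB2 repressor, had the smallest ratios of these 11 in each library, 0.031 and 0.0043. The ratios of the neuronal SOXC members SOX4 and Sox11 were above those of Sox2 in both libraries, and so were those of the SOXB1 factor Sox1. Sox2 took 91.9 and 90.8 of every 10000 counts in SOX-high cells, far more than SOX4 or Sox1. The sizes of these ratios thus do not rank neuronal against progenitor factors.

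**Figure D2:**
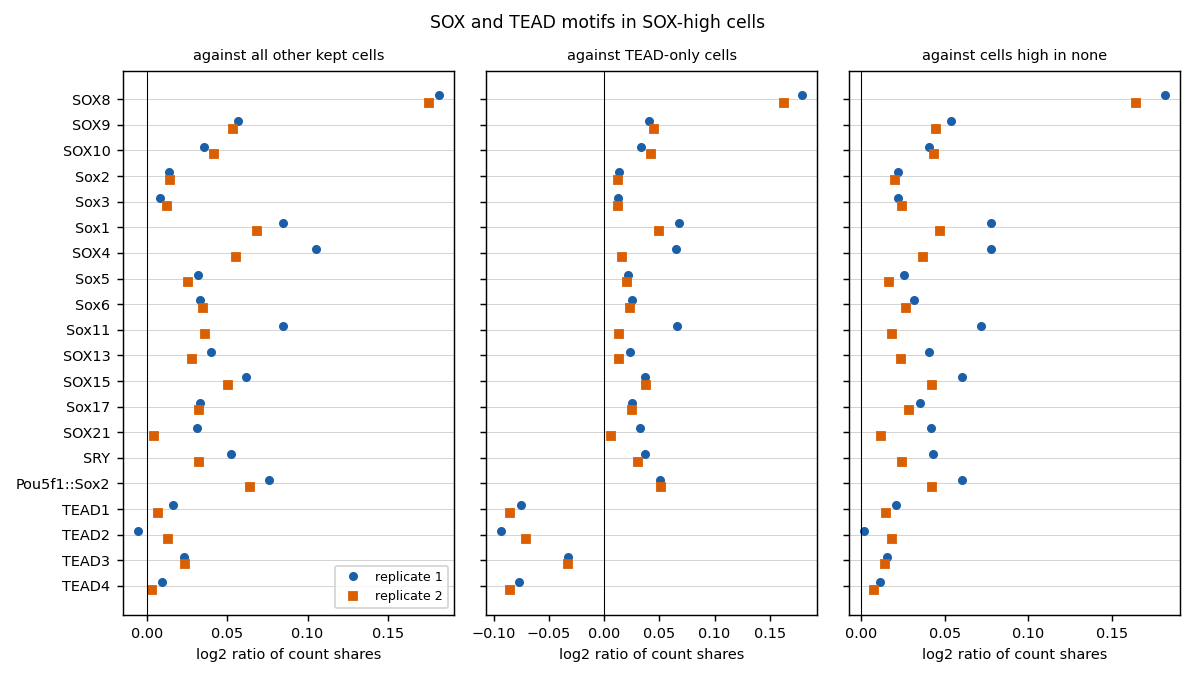
Log2 ratio of count shares (x axis) for 16 SOX and 4 TEAD motifs (y axis) in SOX-high cells against all other kept cells (left), TEAD-only cells (middle) and cells high in none of the 4 scores (right); circles are replicate 1 and squares replicate 2. SOX8 is farthest right in each panel, and TEAD motifs are below 0 only in the middle panel, except TEAD2 of replicate 1 in the left one (-0.0056).

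Against TEAD-only cells, the 136 and 166 cells in the top 25% of the TEAD score and in the high range of no other score, the SOX motifs kept their order. SOX8 took 1.15 against 1.01 per 10000 in replicate 1 and 1.14 against 1.02 in replicate 2 (0.18 and 0.16), SOX9 differed by 0.041 and 0.045, and Sox2 by 0.013 in each. All 11 SOX motifs outside the rule were again higher in both libraries (medians 0.037 and 0.023). TEAD1 took 6.54 in SOX-high cells and 6.88 per 10000 in TEAD-only cells of replicate 1, and 6.38 against 6.77 in replicate 2 (-0.075 and -0.086). TEAD3, the most abundant TEAD pattern, differed by -0.033 in both. Against the 261 and 289 cells high in none of the 4 scores, all 4 TEAD motifs were higher in SOX-high cells in both libraries, with medians of 0.013 and 0.015.

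Motifs outside the SOX, TEAD, POU4F and proneural families were tested with edgeR on counts summed per library and cell group. Of 533 such motifs, 147 were higher (27.6%) and 183 lower (34.3%) than in all other kept cells at an adjusted p under 0.05, 61.9% in either direction. Against TEAD-only cells 98 were higher (18.4%) and 92 lower (17.3%), 35.6% in all, and against cells high in none of the scores, a comparison added after the data were seen, 160 were higher (30%) and 213 lower (40.0%), 70.0% in all. The comparisons share the SOX-high cells, so each is given by its own values. The percentages over all 533 motifs are the background for the calls of each list below. The differences were small: of the motifs that passed against all other kept cells, 17 were more than 0.05 higher and 39 more than 0.05 lower on edgeR's log2 scale. Motifs can share peaks with those that chose the cells, so a passed test does not support the choice. The fit took out the shift that all groups of a library share. A test thus sets a difference against the spread that is left over, with 5 residual degrees of freedom, and not against the full spread between libraries. Without edgeR's TMM scaling the first comparison gave 174 higher and 136 lower. Without the library term 54 were higher and 67 lower.

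Of 5 lists of progenitor motifs, the homeodomain list was the one that was higher throughout. All 6 of its motifs were called higher by edgeR in each of the 3 comparisons, with medians of 0.040 and 0.032 against all other kept cells beside -0.0028 and 0.0013 over the 533 motifs tested. LHX2, a LIM-homeodomain factor of the eye field and of retinal progenitors, took 5.43 against 5.28 per 10000 in replicate 1 and 5.36 against 5.24 in replicate 2. Its log2 ratio was 0.040 and 0.033 (edgeR 0.030 ± 0.0058 SE, adjusted p = 0.00116). LHX9, its close relative, took 66.4 against 64.8 and 66.1 against 64.7 (0.035 and 0.031, edgeR adjusted p = 2.8e-05). RAX, which specifies the eye field, had 0.040 and 0.030. RAX2 has the same counts as Prrx2 and PRRX1, so these patterns are those of paired-type homeodomains in general. Across kept cells the homeodomain list score had r = -0.76 and -0.74 (n = 890 and 1051) with the score of the GC-rich promoter motifs described below. The part of that score in the homeodomain difference was not tested. Without the library term, 5 of the 6 passed in the first comparison, 1 of 6 against TEAD-only cells and 5 of 6 against cells high in none.

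The other progenitor lists did not rise as groups. Pax6, the eye-field regulator kept by progenitors, took 0.372 against 0.355 per 10000 in replicate 1 and 0.376 against 0.364 in replicate 2 (0.065 and 0.044), which did not pass (edgeR adjusted p = 0.283). It passed against cells high in none (0.071 ± 0.022 SE, edgeR adjusted p = 0.0137). Of 5 measured eye-field motifs, 1 was called lower and none higher against all other kept cells by edgeR (1 at an unadjusted p under 0.05; DESeq2 and limma each called 1 higher). Of 3 NFI motifs, factors that act late in progenitors, NFIA was called higher (0.027 and 0.021, edgeR adjusted p = 0.0112), while NFIX differed by 0.0032 and 0.0046 on the share scale and by -0.0022 in the edgeR fit. The 6 Notch effector motifs, HES5, HES7, HEY1, HEY2 and RBPJ among them, included 2 called lower against all other cells, a share near the 34.3% of all tested motifs, and 3 of the 6 were above 0 there in replicate 2. Against TEAD-only cells 2 were called lower and against cells high in none 6. HES7, a repressor of the Hairy family, had -0.049 and -0.020 against all other kept cells (edgeR adjusted p = 0.0186).

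Motifs of the cell cycle showed no common direction. Of 11 E2F and MYB motifs, 2 were called higher by edgeR against all other kept cells and 4 lower. Over all tested motifs the shares were 27.6% higher and 34.3% lower. E2F4, a repressor in resting cells, had -0.022 and -0.021 (edgeR adjusted p = 0.00348), and E2F6 had -0.020 in each library. E2F3, an activator of S phase entry, had 0.049 and 0.024 (edgeR adjusted p = 0.0285). MYBL1 had 0.25 and 0.11 but took only 0.023 of every 10000 counts in SOX-high cells. The 4 TCF and LEF motifs of Wnt signalling had medians of 0.0082 and 0.010. Of these 4, 1 was called higher, a share near the 27.6% of all tested motifs.

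**Figure D3:**
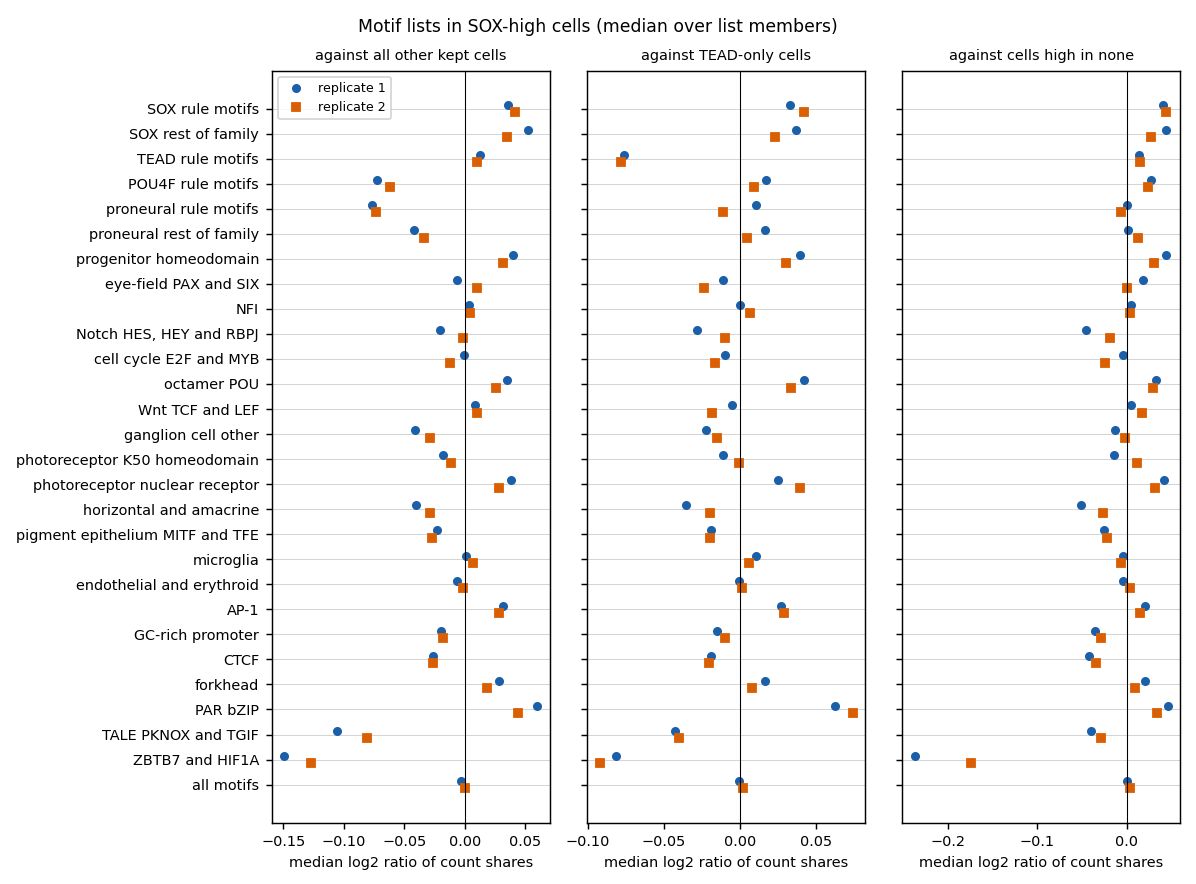
Median log2 ratio of count shares over each motif list (rows) in SOX-high cells, against all other kept cells (left), TEAD-only cells (middle) and cells high in none of the 4 scores (right); circles are replicate 1 and squares replicate 2. Lists to the right of 0 in every panel include the SOX, homeodomain, octamer, nuclear receptor, AP-1, forkhead and PAR bZIP lists. Those to the left in every panel include the GC-rich promoter, CTCF, pigment epithelium, and horizontal and amacrine lists. The forkhead, PAR bZIP, PKNOX and TGIF, and ZBTB7 and HIF1A lists were drawn up after these values were seen.

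Octamer motifs, the patterns of POU factors outside the POU4F family, were higher as well. Of 11, edgeR called 9 higher against all other kept cells, 9 against TEAD-only cells and 11 against cells high in none, with medians of 0.035 and 0.026 in the first comparison. POU2F2 took 4.94 against 4.75 per 10000 in replicate 1 and 5.0 against 4.84 in replicate 2 (0.057 and 0.049, edgeR adjusted p = 0.000151). POU3F2, a factor of progenitors and neurons, had 0.022 and 0.013 in that comparison and did not pass (edgeR adjusted p = 0.151). POU4F1, the ganglion cell factor used to exclude cells, was by construction lower than in all other kept cells (-0.094 and -0.084) but lay 0.024 above cells high in none in both libraries.

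Motifs of differentiating retinal cells were mostly lower than in all other kept cells, a group that holds the POU4F-high and proneural-high cells the rule set aside. EBF1, a factor of differentiating neurons including ganglion cells, took 2.04 against 2.14 per 10000 in replicate 1 and 1.99 against 2.06 in replicate 2 (-0.074 and -0.048, edgeR adjusted p = 0.000151). Crx, the photoreceptor homeodomain factor, took 1.06 against 1.1 and 1.03 against 1.06 (-0.060 and -0.035, edgeR adjusted p = 0.0158), and 6 of the 8 motifs of its K50 class were called lower. That list differed less elsewhere: 1 was called higher and 2 lower against TEAD-only cells (medians -0.011 and -0.00052), and 1 higher and 3 lower against cells high in none (medians -0.015 and 0.011). Of 15 motifs of horizontal and amacrine cell factors, 12 were called lower, with medians of -0.040 and -0.028, and 7 were called lower against TEAD-only cells and 9 against cells high in none. NEUROD1, which the rule used, had -0.14 and -0.12, and 18 of the 19 other proneural bHLH motifs were lower in each library (medians -0.042 and -0.034). The proneural medians were 0.017 and 0.0048 against TEAD-only cells.

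Orphan nuclear receptor motifs went the other way from the rest of the photoreceptor lists. RORB, a receptor of photoreceptor and interneuron development that progenitors also express, took 1.23 against 1.18 per 10000 in replicate 1 and 1.92 against 1.82 in replicate 2 (0.064 and 0.079, edgeR adjusted p = 0.00218). RORA(var.2), a pattern of its relative RORA, had 0.062 and 0.073, and Nr2e1, the progenitor receptor also called TLX, had 0.019 and 0.016 (edgeR adjusted p = 0.0189). Nr2e3, which represses cone genes in rods, had -0.0060 and -0.0072 (edgeR adjusted p = 0.00105). In all, 4 of 6 were called higher and 1 lower.

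Markers of cells outside the neural retina gave no single direction apart from the pigment epithelium. All 4 MITF and TFE motifs of the pigment epithelium were called lower by edgeR, with medians of -0.023 and -0.027. Of 14 microglial motifs, 4 were called higher and 3 lower, and of 11 endothelial and erythroid motifs 1 higher and 4 lower. Over all tested motifs 27.6% were called higher and 34.3% lower, so these counts are not read as a result about either list. AP-1 motifs respond to growth signals and to stress of dissociation. Of 21, 8 were called higher and 2 lower, beside the same shares of all tested motifs (medians 0.032 and 0.029). The part of these motifs in the other results was not tested.

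Most GC-rich motifs of promoters were lower in all 3 comparisons, but edgeR called few of them against TEAD-only cells. Of 20, edgeR called 17 lower in the first comparison, beside 34.3% of all tested motifs. It called 20 lower against cells high in none (40.0% of all). Against TEAD-only cells it called 3 lower, a share near the 17.3% of all tested motifs. There 3 of the 20 were above 0 in each library. DESeq2 called 13 lower and 1 higher there, and limma 14 lower and 0 higher. Over the 533 tested motifs DESeq2 called 138 lower and limma 162. The medians of the 20 were -0.020 and -0.018 against all other kept cells and -0.015 and -0.010 against TEAD-only cells. Against cells high in none they were -0.035 and -0.029. Both CTCF list members were called lower in the first comparison, with medians of -0.026 in each library. Across kept cells the SOX score had r = -0.56 and -0.55 with the promoter list score, 0.59 and 0.60 with the homeodomain list score, and 0.17 and 0.061 with the log10 total (n = 890 and 1051). The part of promoter accessibility in the other differences was not tested. Without the library term the calls in the first comparison were 8 lower of these 20, 4 lower of the 15 horizontal and amacrine motifs, 2 lower of the 8 K50 motifs and 2 higher of the 21 AP-1 motifs. None of the octamer, Notch, NFI, eye-field, Wnt or EBF1 and ISL2 motifs passed in that edgeR fit, whereas with the term 10, 2, 1, 1, 1 and 2 of them had an unadjusted p under 0.05 and DESeq2 called 11, 2, 1, 2, 1 and 2. When the promoter list score was regressed out before cells were chosen, 83.3% and 79.6% of SOX-high cells were chosen again, and 194 motifs passed against all other kept cells in place of 330.

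The motifs outside the rule's families that differed most from all other kept cells were mixed in kind. JUND, an AP-1 subunit, took 1.35 of every 10000 counts in SOX-high cells of both libraries against 1.26 and 1.27 (0.10 and 0.090, edgeR 0.090 ± 0.012 SE, adjusted p = 0.000123). FOXK2 (0.096 and 0.072), FOXA1 (0.077 and 0.057) and FOXC1 (0.070 and 0.048) are forkhead factors. TEF, a PAR bZIP factor of the circadian output, took 0.465 against 0.436 and 0.494 against 0.472 (0.093 and 0.064, edgeR adjusted p = 0.0109). CEBPA, RORB, RORA(var.2), FOSL1::JUN, EN2 and Arid5a followed, with edgeR differences of 0.058 to 0.067. TEF (-0.031), CEBPA (-0.011) and Arid5a (-0.0068) changed sign when cells were chosen by Sox2 and Sox3 alone, and FOSL1::JUN (-0.011) did so on thinned cells.

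ZBTB7B, a zinc finger factor best known from T cells, differed most of all motifs tested. It took 1.30 per 10000 in SOX-high cells against 1.67 in all other cells of replicate 1, and 1.31 against 1.61 in replicate 2 (-0.35 and -0.30, edgeR -0.32 ± 0.085 SE, adjusted p = 0.00703). Cells high in none of the scores had 1.91 and 1.75, and TEAD-only cells 1.51 and 1.53, against which the difference did not pass (edgeR adjusted p = 0.065). HIF1A, the hypoxia-inducible factor, took 3.80 against 4.27 and 3.81 against 4.19 (-0.17 and -0.14, edgeR adjusted p = 0.00142), and ZBTB7C had -0.13 and -0.12. The TALE homeodomain motifs TGIF2 (-0.14 and -0.12), TGIF1 (-0.11 and -0.084), PKNOX1 (-0.10 and -0.078) and PKNOX2 (-0.091 and -0.071) were lower too, as was INSM1, a zinc finger factor of newborn neurons (-0.10 and -0.071). CUX1, Stat4, GLIS2 and Hoxa11 completed the 12 lowest, with edgeR differences of -0.11 to -0.079.

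**Figure D4:**
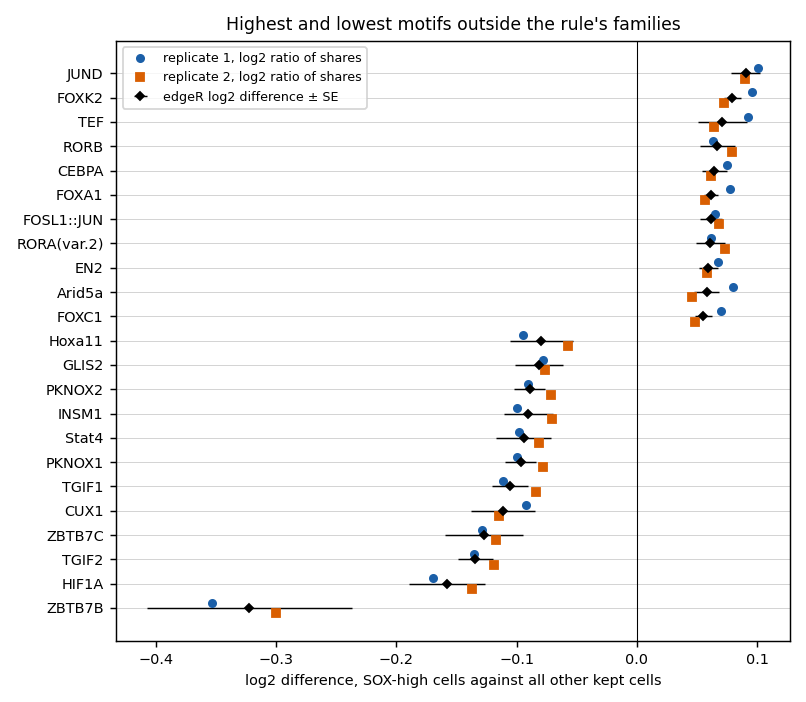
The highest and the 12 lowest motifs (y axis) in SOX-high cells against all other kept cells, among those that passed and moved the same way in both libraries; the x axis is the log2 difference, diamonds are edgeR estimates with SE bars, circles replicate 1 and squares replicate 2. ZBTB7B lies apart at -0.32, and the higher motifs lie between 0.055 and 0.090.

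Against TEAD-only cells the highest motif was TEF, with 0.465 against 0.432 per 10000 in replicate 1 and 0.494 against 0.463 in replicate 2 (0.11 and 0.093, edgeR 0.097 ± 0.021 SE, adjusted p = 0.00675). RORA(var.2) (0.057 and 0.088), DBP (0.079 and 0.060), FOXK2 (0.078 and 0.059) and NFIL3 (0.046 and 0.088) came next. TEF, DBP and NFIL3, 3 of the 4 patterns grouped here as PAR bZIP, were thus among the highest. Dmbx1, JUND, RORB, FOSL1::JUN and FOSL1::JUNB followed with edgeR differences of 0.052 to 0.060. HIF1A was lowest, with 3.80 against 4.07 and 3.81 against 4.10 (-0.098 and -0.10, edgeR adjusted p = 0.0402). Stat4, INSM1, TGIF1, ESRRB, Rarg(var.2), PPARG, HOXD12, NFIC::TLX1, FOSL1, REST and NR3C1 followed, from -0.078 to -0.053 in the edgeR fit. REST, the repressor of neuronal genes, took 13.4 against 14.0 in replicate 1 and 13.6 against 14.0 in replicate 2 (edgeR adjusted p = 0.00267). These calls depended on the processing: 22 of the 533 motifs passed without the library term, and on thinned cells 0 passed in the edgeR fit (5 at an unadjusted p under 0.05). TEF (-0.033), DBP (-0.020) and Dmbx1 (-0.028) changed sign when cells were chosen by Sox2 and Sox3 alone. JUND (-0.0066), FOSL1::JUN (-0.023) and FOSL1::JUNB (-0.016) did so on thinned cells, as did Rarg(var.2) (0.0053) among the lower motifs.

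Against cells high in none of the 4 scores the lowest motifs were ZBTB7B (-0.55 and -0.42), HIF1A (-0.25 and -0.17) and ZBTB7C (-0.23 and -0.17). The highest motif against them was NFE2, a cap'n'collar bZIP factor, with 0.531 against 0.499 per 10000 in replicate 1 and 0.549 against 0.517 in replicate 2 (0.089 and 0.086, edgeR adjusted p = 0.000126). JUND, RORA(var.2), Pax6, JUN and Hoxc9 followed with edgeR differences of 0.066 to 0.079. TEF, RORB, FOXK2 and LHX6 had 0.047 to 0.058. Stat4, GLIS2, INSM1, Hoxa11, IRF5, TFAP2C(var.2), IRF8, REST and Zfx were lower, by -0.15 to -0.057. FOXK2 changed sign on thinned cells (-0.015) and with cells chosen by Sox2 and Sox3 alone (-0.011), TEF in the latter (-0.060), and Hoxa11 (0.015) and IRF8 (0.017) on thinned cells.

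A further 4 lists were drawn up after these values were seen and are given as a description only. Of 25 forkhead motifs 24 were higher in each library than in all other kept cells (medians 0.028 and 0.018). All 4 motifs grouped as PAR bZIP were higher in each (0.060 and 0.044). All 4 PKNOX and TGIF motifs were lower in each (-0.11 and -0.081), as were HIF1A and the 3 ZBTB7 motifs (-0.15 and -0.13).

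Cell by cell, SOX-high cells were spread over the range of most other lists. By construction 25% of kept cells are in the top 25% of any list score. The SOX motifs outside the rule put 68.1% of SOX-high cells there in replicate 1 (Wilson 95% interval 56.6 to 77.7) and 50.5% in replicate 2 (40.6 to 60.5). The homeodomain list put 50% (38.7 to 61.2) and 48.4% (38.5 to 58.4) there, and the octamer list 54.2% and 44.1%. The forkhead list, drawn up after the values were seen and so a description only, put 65.3% and 51.6% there. For the eye-field list the shares were 26.4% and 25.8%, for NFI 31.9% and 29.0%, for Notch 13.9% and 23.7%, and for E2F and MYB 31.9% and 23.7%. Among the lowest shares were those for horizontal and amacrine motifs, 2.78% and 5.38%, and for the other proneural motifs, 1.39% and 2.15%. The PKNOX and TGIF list, drawn up after the values were seen, had 2.78% and 7.53%. The rule set aside cells of high proneural score, so a low share for the other proneural motifs follows from that choice. That share was also low in groups cut the same way, 1.47% and 4.22% of TEAD-only cells and 4.60% and 3.46% of cells high in none. For horizontal and amacrine motifs TEAD-only cells had 14.0% and 16.3%, and cells high in none 18.0% and 15.9%. The intervals cover the counting of cells only. With every cell thinned to 300000 counts the homeodomain shares were 47.2% and 38.7%, the forkhead shares 52.8% and 40.9%, and the shares for the SOX motifs outside the rule 69.4% and 51.6%. Thinning moved the lowest shares by more than 1.5 times, to 9.72% and 12.9% for horizontal and amacrine motifs and to 5.56% and 5.38% for the other proneural motifs.

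**Figure D5:**
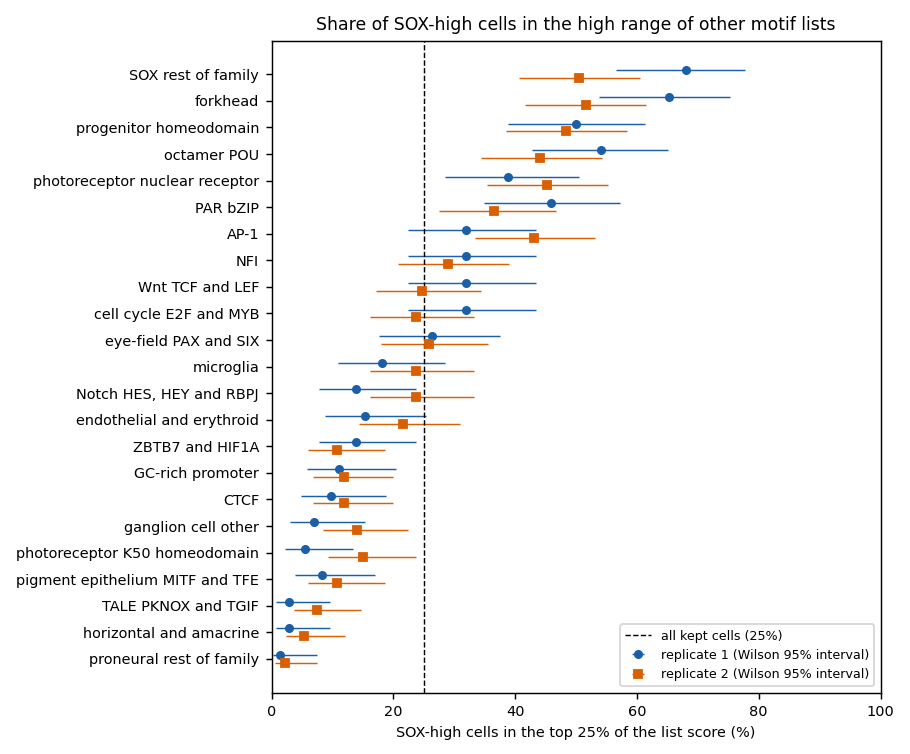
Share of SOX-high cells (x axis, percent) in the top 25% of each motif list score (y axis), with Wilson 95% intervals; circles are replicate 1 (72 cells), squares replicate 2 (93 cells), and the dashed line is the 25% of all kept cells. The other SOX motifs and the forkhead, homeodomain and octamer lists lie above the line in both libraries, and 4 progenitor lists (NFI, E2F and MYB, eye-field, Notch) lie near or below it. The forkhead, PAR bZIP, PKNOX and TGIF, and ZBTB7 and HIF1A lists were drawn up after the values were seen.

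In the motifs outside the rule's families SOX-high cells lay mostly among other cells. Among the 20 nearest neighbours of a SOX-high cell, taken over 15 principal components of the motifs outside the rule's families with depth regressed out, 23.3% and 19.8% were SOX-high, beside 8.09% and 8.85% of kept cells. More neighbours, 33.5% and 36.5%, were cells high in none of the scores, which are 29.3% and 27.5% of kept cells. A further 21.8% and 19.9% were TEAD-only cells (15.3% and 15.8% of kept cells). Few were POU4F-only cells, 0.833% and 2.96% (11.9% and 13.0% of kept cells), or proneural-only cells, 1.74% and 2.53% (13.8% and 14.3%). The same held for TEAD-only cells, whose neighbours were 1.18% and 1.81% POU4F-only and 3.49% and 4.01% proneural-only. So this scarcity is not particular to SOX-high cells. SOX-high cells were at least 50% of the neighbours for 5 and 3 SOX-high cells, and for 6 and 8 there was no SOX-high neighbour.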

How the data were processed

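The authors deposited, for each library, whole-number counts per motif and barcode. Per the file headers they came from software version 1.1.0. Cell Ranger and mm10 are listed in the submitters' processing notes. How peaks and motifs were called is not given in the sources used here, so differences in peaks between the libraries cannot be told apart from differences in cells. The members and lists were chosen with earlier results of these data known. Scores were mean log2 shares with a pseudocount of 0.5. Counts were summed over 6 disjoint cell groups per library. edgeR 4.0.16 (R 4.3.3) fitted the quasi-likelihood model with TMM scaling and library as a block (5 residual degrees of freedom), with Benjamini-Hochberg adjustment over 579 motifs and a threshold of 0.05. The contrast with all other cells weighted groups by their numbers of cells. No p is given for the 46 motifs of the rule's families. Groups are paired because they come from the same library. The differences between libraries correlated at 0.965 to 0.991 over motifs in the 15 pairs of groups. Ratios per library are log2 ratios of summed count shares. The text names the 12 highest and 12 lowest motifs per comparison among those that passed, moved the same way in both libraries and had at least 100 counts per cell on average; a few of these are not reported here. The fit was tried on simulated data for the comparison with all other kept cells. It called 88 of 100 motifs changed by a fold of 1.05 and 99 of 100 changed by 1.1. Of 379 unchanged motifs it called 7. The simulation drew each motif independently and chose no cells by motif, so it cannot speak to motifs that share peaks with the rule's motifs. DESeq2 1.42.0, limma 3.58.1 and other cell choices were tried as alternatives. edgeR returned a raw p of exactly 1 for 20, 28 and 12 motifs in the 3 comparisons, which were counted as not called.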

Additional observations from a re-analysis of the deposited data

Results flagged for a closer look

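Barcodes that were not kept held counts in both libraries, 1.72% of all counts in replicate 1 (1532 barcodes) and 2.72% in replicate 2 (1982 barcodes), and no comparison of SOX-high cells used them. The 5 SOX motifs of the rule took 154 and 158 of every 10000 counts there, against 152 and 157 in kept cells.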

How the results depend on the processing

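Of the motifs tested with edgeR, 330 passed against all other kept cells, 190 against TEAD-only cells and 373 against cells high in none of the scores. With no replicate block the counts were 121, 22 and 81. With the promoter list regressed out they were 194, 94 and 152, and with cells thinned to 300000 counts, which leaves fewer counts, 71, 0 (5 at an unadjusted p under 0.05) and 153. With only Sox2 and Sox3 in the score they were 182 and 23 in the first comparisons, and with cells outside the top 15% of the other scores 20 against TEAD-only cells. With cells outside the top 35%, 197 passed in the third comparison. SOX-high cells were 8.47% of kept cells, with a median depth 1.22 times that of other cells and 21.6% of their neighbours SOX-high. The top 10% of the SOX score gave 4.41%, 1.05 and 14.3%. The top 30% gave 12.8% and 28.1%. Outside the top 35% of the other scores the values were 4.53%, 1.16 and 11.5%, and outside the top 15% they were 13.7%, 1.07 and 30.9%. Regressing out the promoter list gave 10.2% and 1.14, and SOX8, SOX9 and SOX10 alone gave 9.09% and 1.15. Sox2 and Sox3 alone gave 4.90%, 1.09 and 9.10%. The score without SOX8, chosen after seeing the data, gave 6.87%, 1.31 and 16.7%. Thinned cells gave 1.16 and 12.8%, and leaving out the deepest 5% of cells gave 1.11. Leaving out 1 library gave 8.09% to 8.85%, 1.18 to 1.25 and 19.8% to 23.3%. No test was possible with 1 library, as no residual degrees of freedom are left. Choosing cells by Sox2 and Sox3 alone turned the sign of TEF (-0.031), CEBPA (-0.011) and Arid5a (-0.0068) against all other cells, and of the PAR bZIP list (-0.013). It did so against TEAD-only cells for TEF (-0.033), DBP (-0.020), Dmbx1 (-0.028), TGIF1 (0.013), ESRRB (0.0049), Rarg(var.2) (0.019), PPARG (0.027), NFIC::TLX1 (0.021) and FOSL1 (0.029), and against cells high in none for TEF (-0.060) and FOXK2 (-0.011). Thinning turned FOSL1::JUN (-0.011) in the first comparison, Dmbx1 (-0.0018), JUND (-0.0066), FOSL1::JUN (-0.023), FOSL1::JUNB (-0.016) and Rarg(var.2) (0.0053) in the second, and FOXK2 (-0.015), Hoxa11 (0.015) and IRF8 (0.017) in the third. The cause was not tested. Of SOX-high cells, 37.5% and 30.1% were chosen again after thinning and 27.8% and 30.1% by Sox2 and Sox3 alone.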
